A study of Homo sapiens with 36 samples.

Results

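The comparison described here is the transcriptional response to hydrogen peroxide in *TXNL1* knockout cells complemented with a mutant TXNL1 that does not bind proteasomes. It was taken by label as the 3 libraries of H2O2-treated TXNL1-DR-RD cells against the 3 libraries of DMSO-treated TXNL1-DR-RD cells, which are 6 of the 36 libraries of the series. All cells were HEK293T, a human embryonic kidney line that carries the SV40 large T antigen, and all had lost *TXNL1* by knockout in a line grown from a single sorted cell. Lentiviral constructs driven by a CMV promoter then gave an empty vector, TXNL1-WT, TXNL1-SxxS, in which the active-site cysteines are replaced by serine, or TXNL1-DR-RD, in which an aspartate is replaced by arginine and an arginine by aspartate at the surfaces that contact the proteasome. Each of the 4 lines was sampled in triplicate after DMSO, H2O2 or Arsenite, which gave 12 groups, and the study's methods state exposures of 600 µM H2O2 or 100 µM arsenite for 6 h, doses that the sample labels do not give. The methods also state that cells in multi-well plates were treated in triplicate. Neither they nor the labels say that the replicates were independent cultures. The p-values thus measure only the spread between these samples, which may be that of parallel wells. The comparison shows how these cells responded to peroxide and, set against the other lines, whether that response differed.

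Hydrogen peroxide oxidises thiols and damages DNA. Cells remove it with catalase, peroxiredoxins and glutathione peroxidases, and the thioredoxin system, to which TXNL1 belongs by its thioredoxin domain, returns oxidised cysteines to their reduced form. Peroxide is known to delay the cell cycle at its checkpoints, to activate p53 and its target *CDKN1A*, to activate NRF2 when the sensor KEAP1 is oxidised, and to activate ATF4 through kinases that phosphorylate the initiation factor eIF2. In HEK293T cells the large T antigen binds p53 and the retinoblastoma protein. Expression of the genes needed for mitosis rises in G2 and M phase under the DREAM, MYBL2 and FOXM1 complexes, which act at short promoter elements. In bulk RNA, fewer cells in a phase and less RNA per cell cannot be told apart.

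The targeted gene, *TXNL1*, lies on the minus strand of chromosome 18 at 56597209 to 56651600 (GRCh38). Levels are given throughout as CPM (counts scaled to a library of 1e6 counts after TMM correction of library sizes), and they compare samples for one gene and not genes of different length. *TXNL1* stood at 66.2, 59.3 and 63.2 CPM in the DMSO samples of TXNL1-DR-RD cells and at 28.6 to 31.7 CPM in those of vector cells. The construct thus raised the *TXNL1* level by 1.04 on the log2 scale over the transcript that the knockout line still makes (edgeR's quasi-likelihood test, Benjamini-Hochberg adjusted p = 1.27e-12). With H2O2 the level was 75.6, 78.5 and 82.0 CPM, above every DMSO sample. It rose 1.25-fold (log2 fold change 0.32 ± 0.06 SE, n = 3 per group, edgeR adjusted p = 0.0017). These counts add the construct's transcript to that of the knocked-out gene, so which of them rose was not tested. The log2 fold change with H2O2 was 0.04 in vector cells, 0.03 in TXNL1-WT cells and 0.20 in TXNL1-SxxS cells, and the differences from TXNL1-DR-RD cells did not pass the test (log2 difference 0.29 ± 0.08 SE from vector cells, 0.30 ± 0.08 from TXNL1-WT cells and 0.12 ± 0.08 from TXNL1-SxxS cells, with an edgeR adjusted p of 0.270 for the TXNL1-WT line).

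The 6 libraries held 52442273 to 80658689 counts, with replicate 3 the shallowest in both groups. Their log2 levels deviated from their group's median with an SD of 0.065 to 0.168 over 12043 genes, and DMSO replicate 3 had the largest. A pair of libraries outside the comparison, replicate 1 of arsenite-treated and replicate 2 of H2O2-treated TXNL1-WT cells, had SDs of 0.530 and 0.606 against 0.168 at most in the other 34, and since all 36 libraries share one estimate of the spread, counts of genes called between H2O2 and DMSO are also given without them. Mitochondrial transcripts took 0.733 to 0.954% of counts with DMSO and 0.843 to 1.02% with H2O2. The summed level of 7 genes typical of HEK293T was 589 to 629 CPM with DMSO and 673 to 690 CPM with H2O2. Of the 7, 0 passed the test, and 2 were higher without the outlying libraries, against 5.51% of all genes. The 5 fibroblast markers summed to 18.9 to 20.03 and 15.7 to 18.5 CPM, the 4 leukocyte markers to 0.257 to 0.598 and 0.202 to 0.313 CPM, the 3 endothelial markers to 0.0605 to 0.347 and 0.0552 to 0.177 CPM and the 2 keratinocyte markers to 0.154 and 0.0135 CPM at most, and no marker was at 0 in all 6 samples. The part of these shifts in the results was not tested.

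Of 22486 genes tested, 231 passed an adjusted p of 0.05 in edgeR's quasi-likelihood test. Expression was higher with H2O2 for 113 (0.503% of the genes tested) and lower for 118 (0.525%). Changes were small, with 16 genes at a log2 fold change of 1 or more in size and 140 of the 231 under 0.5. The CPM of the H2O2 and DMSO groups did not overlap for 229 of the 231, and for 4923 of all genes tested (21.9%). Without the 2 outlying TXNL1-WT libraries, 2328 genes passed (1238 higher, 5.51%, and 1090 lower, 4.85%), all 231 among them. Samples with the same replicate number deviated together in this line, although replicate 2 correlated more with a sample of another number (0.32 against 0.25). A fit on the 6 libraries with the replicate number as a block called 2144 genes (1320 higher, 5.87%, and 824 lower, 3.66%), against 178 without the block and 240 with a block over all 36 libraries. DESeq2 called 457 genes (262 higher, 1.17%, and 195 lower, 0.867%). Leaving out 1 library gave 157 genes without DMSO replicate 1, 139 without DMSO replicate 2, 147 without DMSO replicate 3, 139 without H2O2 replicate 1, 124 without H2O2 replicate 2 and 151 without H2O2 replicate 3. The gene nearest inside the threshold was *BRD2* (log2 fold change 0.15, adjusted p = 0.0496), and the nearest outside was *SH3GL2* (0.61, adjusted p = 0.0501).

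Genes of mitosis fell with H2O2. Of 70 genes of G2 and M phase, 29 fell with H2O2, 0 rose and 41 did not pass the test, where 0.525% of all genes were lower. The median log2 fold change of the 70 was -0.31 and that of all tested genes was -0.00056, and 68 of the 70 were below 0. Without the outlying libraries 56 of the 70 were called lower, against 4.85% of all genes. With the replicate block on the 6 libraries 51 were called lower, against 3.66%. Leaving out 1 of the 6 libraries left 24 to 28 of them called.

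*PLK1*, the kinase that drives mitotic entry and spindle assembly, stood at 254, 273 and 282 CPM with DMSO and at 152, 152 and 153 CPM with H2O2. The treated samples lay close to each other (SD 0.682 CPM) and far under the lowest control. *PLK1* fell to 0.565 of its DMSO level (log2 fold change -0.82 ± 0.05 SE, edgeR adjusted p = 8.05e-12). An antisense transcript, ENSG00000261266, shares exonic sequence with it and moved alike (log2 fold change -0.83), and whether strand was used in counting is not stated. *KIF20A*, a kinesin of the central spindle needed for cytokinesis, stood at 118, 111 and 104 CPM with DMSO and 57.4, 59.0 and 59.4 CPM with H2O2 (log2 fold change -0.92 ± 0.10 SE, edgeR adjusted p = 7.07e-07). *KIF20A* shares exonic sequence with *BRD8* and *CDC23*. *PSRC1*, a spindle microtubule protein, went from 39.8, 44.2 and 49.4 CPM to 23.1, 24.5 and 27.6 CPM (log2 fold change -0.83 ± 0.11 SE, edgeR adjusted p = 3.5e-05). Replicate 3 was the highest of both groups, which did not overlap. *PIF1*, a DNA helicase that unwinds G-quadruplexes, had the largest fall of the list at low levels, 2.39, 1.76 and 2.24 CPM with DMSO against 0.657, 0.957 and 1.16 CPM with H2O2 (log2 fold change -1.23 ± 0.23 SE, edgeR adjusted p = 0.00415).

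**Figure D1:**
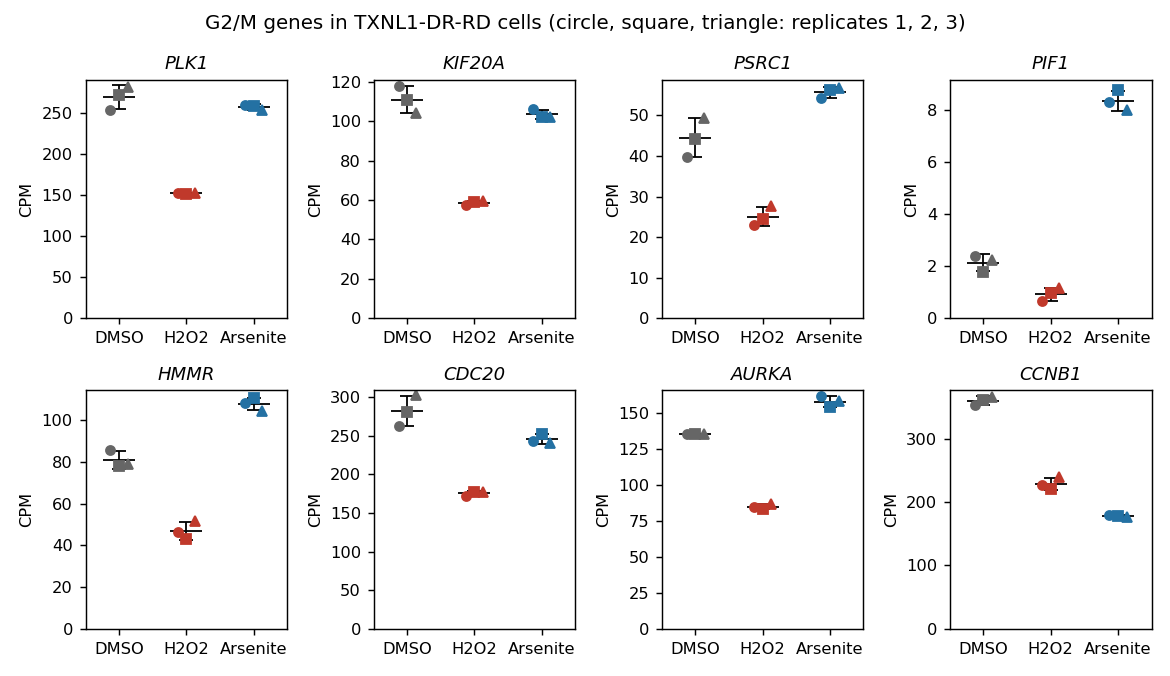
CPM (y axis, linear from 0) of 8 genes of G2 and M phase in each DMSO, H2O2 and Arsenite sample of TXNL1-DR-RD cells, with the mean (horizontal line) and SD (whiskers) of 3 replicates. The H2O2 samples lie under every DMSO sample in all 8 panels, while arsenite samples of *PSRC1*, *PIF1*, *HMMR* and *AURKA* lie above the DMSO samples and those of *CCNB1* are the lowest.

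The fall included several parts of the mitotic machinery. *CCNB1*, cyclin B1 and the partner of CDK1, was at 353, 361 and 366 CPM with DMSO and 226, 220 and 239 CPM with H2O2 (log2 fold change -0.65 ± 0.05 SE, edgeR adjusted p = 3.18e-10). *AURKA*, the centrosomal Aurora kinase, was at 136, 136 and 135 CPM and then at 85.0, 83.5 and 86.7 CPM, a log2 fold change of -0.67 in groups that lay far apart. Its activator *TPX2* fell by 0.41 on the log2 scale. *CDC20*, the activator of the anaphase-promoting complex, went from 263, 281 and 302 CPM to 171, 177 and 178 CPM (log2 fold change -0.69), and a pseudogene copy, *CDC20P1*, can share its reads. *HMMR*, a spindle assembly factor, went from 85.8, 77.9 and 78.9 CPM to 46.2, 43.1 and 51.8 CPM (log2 fold change -0.78), together with *HMMR-AS1*, which overlaps it. *CDCA3*, which takes part in mitotic entry, fell by 0.74 and *CENPE*, a kinesin of the kinetochore, by 0.65. The groups overlapped in none of these genes, and also did not overlap in 21.9% of all genes tested. The smallest called falls in the list were those of *TOP2A*, topoisomerase II alpha (log2 fold change -0.27), and *KPNA2*, an importin (-0.26).

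The promoters of the 4 mitotic genes with the largest falls are shown because genes of this phase are known for 2 elements, the cell cycle homology region (TTTGAA, or its variant TTTAAA) and the CCAAT box bound by NF-Y. The sequences are the 150 bases before the RefSeq start of each gene (GRCh38.p14), 5′ to 3′ along the gene, with matches to these letters on either strand in capitals. They lie at chr15:64825648-64825797 (minus strand) for *PIF1*, chr5:138178962-138179111 (plus) for *KIF20A*, chr1:109283146-109283295 (minus) for *PSRC1* and chr16:23678739-23678888 (plus) for *PLK1*. GENCODE lists transcripts of all 4 that start further upstream.
PIF1: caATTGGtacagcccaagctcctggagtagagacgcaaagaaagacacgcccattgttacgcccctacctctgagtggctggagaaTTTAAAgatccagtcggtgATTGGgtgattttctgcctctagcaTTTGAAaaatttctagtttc
KIF20A: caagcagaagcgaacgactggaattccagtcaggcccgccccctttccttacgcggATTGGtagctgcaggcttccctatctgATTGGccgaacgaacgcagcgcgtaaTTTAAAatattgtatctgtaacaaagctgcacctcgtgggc
PSRC1: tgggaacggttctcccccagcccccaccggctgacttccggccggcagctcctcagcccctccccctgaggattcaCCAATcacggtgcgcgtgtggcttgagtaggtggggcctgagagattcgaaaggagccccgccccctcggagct
PLK1: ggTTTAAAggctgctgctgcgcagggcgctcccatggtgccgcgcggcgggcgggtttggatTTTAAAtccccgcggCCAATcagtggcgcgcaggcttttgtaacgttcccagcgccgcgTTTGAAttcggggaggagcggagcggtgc

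In *PLK1* the TTTGAA began 29 bases before the start and the CCAAT box 73 bases before it. *PIF1* held TTTGAA at 20 bases and its nearer CCAAT box at 45 bases, and *KIF20A* held TTTAAA at 41 bases with CCAAT boxes at 67 and 94 bases. *PSRC1* held a CCAAT box at 74 bases and neither TTTGAA nor TTTAAA in this stretch. Other variants of the cell cycle homology region were not searched, so these matches do not show that *PSRC1* lacks the element. Over the 250 bases before the start, CCAAT together with TTTGAA or TTTAAA occurred in 5.79% of the windows of tested genes (751 of 12969 with a window) and in 34 of 59 windows of the G2 and M list. It occurred in 15 of 26 windows of members that fell (57.7%) and in 19 of 33 windows of members that did not pass the test (57.6%). Among genes that fell but are outside the list, 11 of 60 windows (18.3%) held the pair, and among genes that rose, 4 of 82 (4.88%). These are matches of letters and not measured binding sites.

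A few genes of the preceding phases rose. Of 58 genes of G1 and S phase, 6 rose, 1 fell and 51 did not pass the test, against 0.503% of all genes higher and 0.525% lower, with a median log2 fold change of 0.13 and 53 of 58 above 0. Without the outlying TXNL1-WT libraries 30 were called higher and 2 lower, against 5.51% and 4.85% of all genes. The replicate block on the 6 libraries called 27 higher, against 5.87%. Leaving out 1 library of the comparison left 4 called higher without DMSO replicate 1 and 2 without any of the other 5. *E2F2*, a transcription factor of S phase entry, stood at 28.8, 28.4 and 30.0 CPM with DMSO and at 41.7, 42.3 and 39.95 CPM with H2O2, without overlap (log2 fold change 0.51 ± 0.07 SE, edgeR adjusted p = 6.01e-05). *EXO1*, a DNA repair exonuclease, went from 108, 104 and 97.5 CPM to 144, 134 and 143 CPM (log2 fold change 0.44). Both large subunits of the chromatin assembly factor rose, *CHAF1A* by 0.31 and *CHAF1B* by 0.20 on the log2 scale, as did *CDC6*, which licenses replication origins (0.21), and *DSCC1*, a subunit of a clamp loader for sister chromatid cohesion (0.30). The one member that fell was *LIG1*, the DNA ligase of the lagging strand (log2 fold change -0.23). Of 35 replication-dependent histone genes tested, whose messages lack a poly(A) tail, 0 passed in edgeR and 1 in DESeq2. In edgeR 4 of them had an unadjusted p under 0.05, as had 2408 of all 22486 genes tested. Without the outlying libraries 1 of the 35 was higher and 2 were lower.

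Among p53 targets, 6 of 43 genes tested rose, 0 fell and 37 did not pass the test, against 0.503% of all genes higher. The median log2 fold change was 0.18. Without the outlying libraries 16 were called higher, against 5.51% of all genes, and with the replicate block on the 6 libraries 17, against 5.87%. Leaving out 1 library of the comparison left 5 to 7 called higher. *PHLDA3*, an inhibitor of AKT, stood at 6.73, 7.85 and 9.79 CPM with DMSO and 16.1, 17.9 and 19.2 CPM with H2O2, a 2.19-fold rise and the largest of the list (log2 fold change 1.13 ± 0.19 SE, edgeR adjusted p = 0.000975). *CDKN1A*, the cyclin-dependent kinase inhibitor p21, stood at 6.57, 6.63 and 8.02 CPM and then at 11.3, 13.8 and 15.6 CPM (log2 fold change 0.94 ± 0.13 SE, edgeR adjusted p = 5.98e-05), and it shares exonic sequence with *DINOL*. Replicate 3 was the highest of both groups in each of these genes. *GADD45A*, which binds PCNA and p21 after DNA damage, went from 8.48, 9.20 and 10.3 CPM to 14.7, 14.2 and 16.2 CPM (log2 fold change 0.69). The antiproliferative gene *BTG2* rose by 0.52, *SESN2*, a leucine sensor that restrains mTORC1, by 0.39 and the apoptosis-linked nuclease *AEN* by 0.28 on the log2 scale. *MDM2*, the ubiquitin ligase of p53, was at 98.7 to 117 CPM with DMSO and 120.2 to 127 CPM with H2O2 and did not pass (log2 fold change 0.19, edgeR adjusted p = 0.725).

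**Figure D2:**
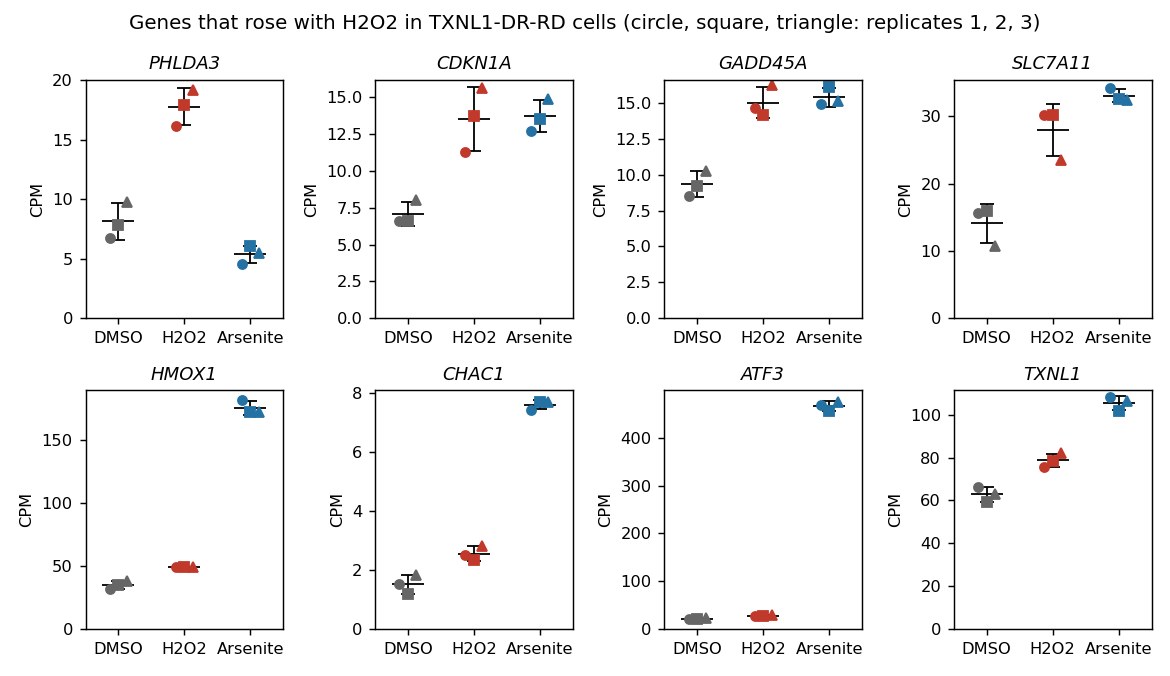
CPM (y axis, linear from 0) of 8 genes that rose with H2O2 in each DMSO, H2O2 and Arsenite sample of TXNL1-DR-RD cells, with the mean (horizontal line) and SD (whiskers) of 3 replicates. Every H2O2 sample lies above every DMSO sample, while arsenite gave far higher levels of *HMOX1*, *CHAC1* and *ATF3* and lower ones of *PHLDA3*.

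The genes of the integrated stress response, which ATF4 and its partners induce, also rose in part. Of 32 tested, 7 rose, 0 fell and 25 did not pass the test, against 0.503% of all genes higher, with a median log2 fold change of 0.16. Without the outlying libraries 17 were higher and 1 lower, against 5.51% and 4.85% of all genes. The replicate block on the 6 libraries called 16 higher, against 5.87%. Leaving out 1 library of the comparison left 4 called higher without DMSO replicate 1 or 2 and 5 or 6 otherwise. *SLC7A11*, the cystine importer that feeds glutathione synthesis, stood at 15.6, 15.9 and 10.7 CPM with DMSO and 30.2, 30.1 and 23.6 CPM with H2O2 (log2 fold change 0.99 ± 0.24 SE, edgeR adjusted p = 0.0325). Replicate 3 was the lowest of both groups, the overall rise was 1.98-fold, and *SLC7A11-AS1* shares exonic sequence with the gene. *CHAC1*, which degrades glutathione, was at 1.53, 1.18 and 1.83 CPM and then at 2.503, 2.33 and 2.83 CPM (log2 fold change 0.76 ± 0.17 SE, edgeR adjusted p = 0.0174). *DDIT4*, an inhibitor of mTORC1, was at 16.1, 15.6 and 23.4 CPM and then at 22.7, 29.8 and 35.4 CPM, so its groups overlapped although it passed (log2 fold change 0.68, edgeR adjusted p = 0.0464). The amino acid transporter *SLC1A4* rose by 0.54, the secreted glycoprotein *STC2* by 0.39 and the transcription factor *ATF3* by 0.40 on the log2 scale, and *SESN2* is also a member of this list. *ATF4* itself, which is controlled mainly at translation, stood at 537, 569 and 613 CPM with DMSO and 674, 709.6 and 705 CPM with H2O2. The groups did not overlap, but the log2 fold change of 0.28 ± 0.12 SE did not pass (edgeR adjusted p = 0.396, against 7.3e-05 without the outlying libraries and 0.000263 on the 6 libraries with the replicate block). The letters TGATGNAA, a form of the element that ATF4 binds with C/EBP partners, occurred before the start of 2 of 6 called members with a window. They occurred in 1 of 22 windows of members that did not pass the test, in 5 of 82 of all rising genes and in 1.46% of tested genes.

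Immediate early genes, the first to answer growth factors and stress, had a median log2 fold change of 0.28 over 31 genes tested. Of these 7 rose, 0 fell and 24 did not pass the test, against 0.503% of all genes higher, and without the outlying libraries 10 were higher, against 5.51%. Leaving out 1 library of the comparison left 2 called without DMSO replicate 1, 3 without DMSO replicate 2, 4 without H2O2 replicate 1 or 2 and 5 without either replicate 3. *FOSL1*, a component of AP-1, stood at 2.63, 2.59 and 2.81 CPM with DMSO and 4.22, 4.20 and 4.36 CPM with H2O2 (log2 fold change 0.67 ± 0.14 SE, edgeR adjusted p = 0.00962). *JUN*, another component of AP-1, went from 100.1, 106 and 116 CPM to 134, 141 and 139.8 CPM (log2 fold change 0.37). The ERK phosphatase *DUSP5* rose by 0.59, *FOSB* by 0.54 and the nuclear receptor *NR4A1* by 0.40 on the log2 scale, and *BTG2* and *ATF3* are shared with the lists above.

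Few genes of peroxide removal and of the thioredoxin system passed the test. Among 30 NRF2 targets tested, *SLC7A11* and *HMOX1* rose and 28 did not pass the test, against 0.503% of all genes higher. The median log2 fold change was 0.03, and 4 were higher without the outlying libraries, against 5.51%. The *SLC7A11* call was lost when DMSO replicate 1, 2 or 3 or H2O2 replicate 1 or 2 was left out (edgeR adjusted p of 0.0679 to 0.209). *HMOX1*, the heme-degrading oxygenase, stood at 31.4, 34.8 and 37.7 CPM with DMSO and 49.2, 49.1 and 49.4 CPM with H2O2 (log2 fold change 0.51 ± 0.11 SE, edgeR adjusted p = 0.0107). Other members of the NRF2 list had log2 fold changes of 0.10 for thioredoxin reductase *TXNRD1*, 0.17 for the quinone reductase *NQO1*, 0.19 for *GCLM* of glutathione synthesis and 0.01 for sulfiredoxin *SRXN1*, none of which passed, although *GCLM* did without the outlying libraries (edgeR adjusted p = 0.0245). Of 19 genes for peroxide removal, 2 fell and 0 rose, against 0.525% of all genes lower. Without the outlying libraries 4 were lower, against 4.85%. *CAT*, catalase, was at 44.3, 43.8 and 48.3 CPM and then at 36.8, 36.4 and 38.9 CPM (log2 fold change -0.28, edgeR adjusted p = 0.0282). *PRDX3*, the mitochondrial peroxiredoxin, was at 308, 301 and 308 CPM and then at 268, 259 and 272 CPM (log2 fold change -0.20, edgeR adjusted p = 0.0126). In the list of 23 genes of the thioredoxin system *TXNL1*, counted together with its construct, was the one called gene. Without the outlying libraries 1 was higher and 1 lower. *PITHD1*, which shares the proteasome-interacting domain of TXNL1, had a log2 fold change of 0.11 ± 0.09 SE (edgeR adjusted p = 0.757).

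**Figure D3:**
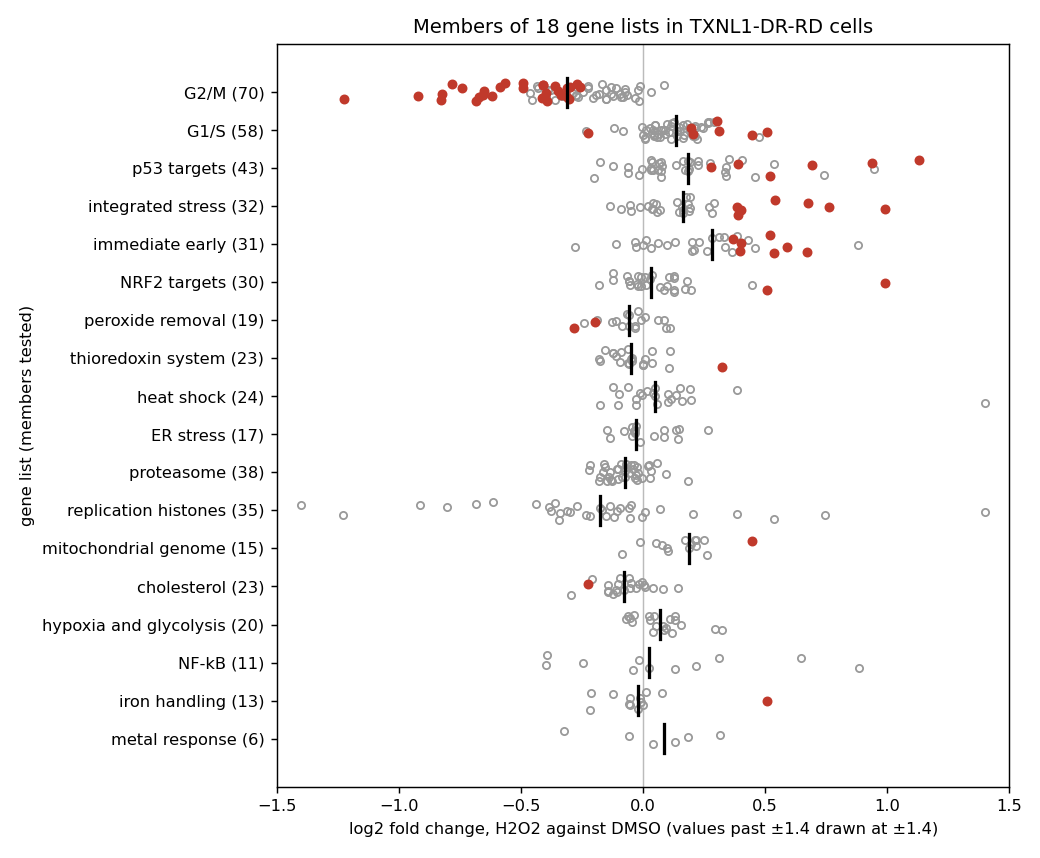
Log2 fold change with H2O2 (x axis) of each tested member of 18 gene lists in TXNL1-DR-RD cells, with called genes filled, others open and the median as a vertical bar. The G2/M list lies mostly below 0 with 29 filled points, while filled points above 0 lie mainly in the G1/S, p53, integrated stress and immediate early lists, and proteasome and heat shock genes have none.

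None of 38 proteasome genes passed the test in edgeR, and their log2 fold changes ran from -0.22 to 0.19 with a median of -0.07. DESeq2 also called 0. In edgeR 2 of the 38 had an unadjusted p under 0.05. Of all 22486 genes tested 2408 did, which is the background for each such count in this paragraph. Without the outlying libraries 7 of the 38 were called lower and 1, the transcription factor *NFE2L1* that controls these genes, higher. In that fit 4.85% of all genes were lower and 5.51% higher, the background for its other counts in this paragraph. *PSMD1* and *PSMD4*, whose products hold the surfaces that the mutated residues would contact, had log2 fold changes of 0.06 and -0.14, and the deubiquitinase *PSMD14* had -0.02. *PSMD1* stood at 269, 273 and 250.4 CPM with DMSO and 280, 270.5 and 274 CPM with H2O2, which overlap. Of 24 heat shock genes 0 passed in edgeR and 1 in DESeq2 (5 at an unadjusted p under 0.05), and 5 were higher and 1, *DNAJB1*, lower without the outlying libraries. Their median was 0.05, and *BAG3* and *DNAJB1*, co-chaperones induced by misfolded protein, had log2 fold changes of -0.06 and -0.18. The other lists held few calls, where 0.503% of all genes were higher and 0.525% lower. *MT-CO1*, a mitochondrially encoded subunit of cytochrome oxidase, rose by 0.45 on the log2 scale, from 1728, 1327 and 1359 CPM to 2193, 1789.6 and 2036 CPM. It was the one gene called of 15 listed for the mitochondrial genome, of which 13 were above 0 and 2 below (median log2 fold change 0.19). *MT-TC*, a mitochondrial tRNA gene outside the list, fell (log2 fold change -0.77). *LSS*, lanosterol synthase, fell by 0.22 as the one called among 23 of cholesterol synthesis, of which 5 were lower without the outlying libraries. No gene passed in edgeR among 17 of the endoplasmic reticulum stress response (4 at an unadjusted p under 0.05, 0 in DESeq2), 20 of hypoxia and glycolysis (2, and 1 in DESeq2), 11 of NF-kB signalling (3, and 1 in DESeq2) and 6 of the metal response (0, and 0 in DESeq2), and *HMOX1* was the one called gene of 13 for iron handling. Without the outlying libraries these lists held 2 lower for endoplasmic reticulum stress, 3 higher for hypoxia and glycolysis, 3 higher and 1 lower for NF-kB, 1 lower for the metal response, and 1 higher and 2 lower for iron handling.

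Several of the largest rises lay outside these lists. *AHNAK2*, a very large scaffold protein, had the largest rise among genes with a mean of at least 100 counts in either group, from 0.330, 0.620 and 0.443 CPM to 1.20, 1.62 and 1.62 CPM (3.19-fold, log2 fold change 1.67 ± 0.33 SE, edgeR adjusted p = 0.00545). *LIF*, a cytokine of the interleukin 6 family, stood at 0.892, 0.666 and 0.617 CPM and then at 1.62, 1.15 and 1.93 CPM (log2 fold change 1.09 ± 0.21 SE, edgeR adjusted p = 0.00583). *ULBP1*, a stress-induced ligand of the NKG2D receptor on killer cells, rose by 0.95, *GDF10*, a BMP-like growth factor, by 0.91, and the ephrin *EFNA2* by 0.82 on the log2 scale. *CREB5*, a transcription factor of the CREB family, went from 10.3, 8.91 and 8.17 CPM to 16.8, 15.9 and 15.1 CPM (log2 fold change 0.80). The delta opioid receptor *OPRD1* rose by 0.78, the glycine transporter *SLC6A9* by 0.75 and the interleukin 6 receptor *IL6R* by 0.73. *RIBC1* (0.95) and *ZBTB42* (0.81) complete the 15 largest rises. Of the 15 largest falls, 7 were of the mitotic genes above, and others were of transcripts with an identifier only or of *HMMR-AS1*. *THAP2*, a zinc finger protein, fell by 0.73, *MT-TC*, the mitochondrial tRNA for cysteine, by 0.77 and *RAPGEFL1*, a guanine nucleotide exchange factor, by 0.67 on the log2 scale.

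The same genes were then read in the other 3 lines, whose libraries entered the calls above through the shared spread and, for the vector DMSO libraries, through the filter on low counts. Of the 231 genes, 213 had the same sign of change with H2O2 in all 3 lines. Among all genes tested, 50.1% were above 0 in vector, 51.1% in TXNL1-WT and 50.6% in TXNL1-SxxS cells. The share of all genes with matching signs between lines was not taken. In vector cells 112 of the 113 rising and 116 of the 118 falling genes had the same sign, and their median log2 fold changes were 0.37 and -0.34, against 0.45 and -0.41 in TXNL1-DR-RD cells, where the genes were chosen. The exceptions there were *ZFYVE28*, *SHISA4* and ENSG00000272872. In TXNL1-WT cells 110 and 111 and in TXNL1-SxxS cells 107 and 116 had the same sign, and *JUN*, *DDIT4*, *ZFYVE28*, *VIM-AS1*, *C14orf132* and *CYP27C1* were the rising genes with the opposite sign in TXNL1-SxxS cells. The medians were 0.37 and -0.31 in TXNL1-WT cells and 0.30 and -0.29 in TXNL1-SxxS cells. Of the 231, 149 were called in the same direction in vector, 157 in TXNL1-WT and 97 in TXNL1-SxxS cells, and 0 in the opposite direction in any of these lines. These counts cannot be ranked against each other, since the lines differed in how many genes passed in all, with 0.712% higher and 0.636% lower in vector, 5.8% and 2.26% in TXNL1-WT and 0.409% and 0.609% in TXNL1-SxxS cells. The median of the G2 and M list was -0.31 in vector, -0.38 in TXNL1-WT and -0.25 in TXNL1-SxxS cells, each beside -0.31 in TXNL1-DR-RD cells. All TXNL1-WT values in this paragraph include the outlying H2O2 replicate 2 of that line (SD 0.606) and were not taken without it.

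A difference between lines was tested gene by gene as the interaction of line and treatment. No gene passed for TXNL1-DR-RD against vector, TXNL1-WT or TXNL1-SxxS cells (percent called 0 in each), while 573, 3080 and 699 genes had an unadjusted p under 0.05 in edgeR. DESeq2 called 0, 2 and 10 genes. A missed threshold does not show that the lines responded alike, and the intervals give the size that the data allow. For *PLK1* the log2 difference from vector cells was -0.07 ± 0.07 SE, for *CCNB1* -0.04 ± 0.07, for *CDKN1A* -0.14 ± 0.18 and for *SLC7A11* -0.02 ± 0.34. The median difference over the 70 genes of G2 and M phase was -0.02 from vector, 0.09 from TXNL1-WT and -0.05 from TXNL1-SxxS cells. Of the 70, 0, 11 and 2 had an unadjusted p under 0.05 in edgeR, beside 573, 3080 and 699 of all 22486 genes tested. The difference from TXNL1-WT cells includes the outlying H2O2 replicate 2 of that line. *JUN* and *DDIT4* rose in TXNL1-DR-RD cells and had log2 fold changes of -0.01 and -0.07 in TXNL1-SxxS cells, but the differences of 0.38 ± 0.10 and 0.75 ± 0.24 SE were not called (edgeR unadjusted p = 0.000955 and 0.00448).

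**Figure D4:**
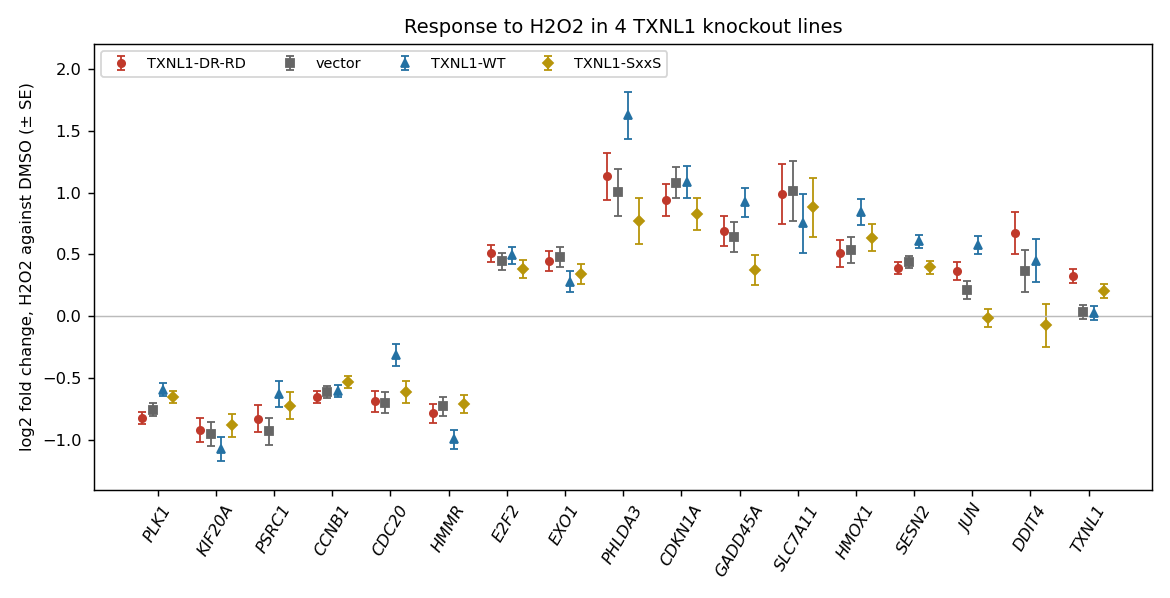
Log2 fold change with H2O2 against DMSO (y axis) of 17 genes in the 4 *TXNL1* knockout lines, with 1 SE from the shared edgeR fit as error bars. Points of the 4 lines lie on the same side of 0 for the mitotic, G1/S and p53 genes, while *JUN* and *DDIT4* are near 0 in TXNL1-SxxS cells and *TXNL1* is near 0 in vector and TXNL1-WT cells.

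Without the 2 outlying TXNL1-WT libraries, 1 gene passed against vector cells, 0 against TXNL1-WT cells and 14 against TXNL1-SxxS cells, all with the higher response in TXNL1-DR-RD cells. *WWTR1-AS1*, an antisense transcript that overlaps *WWTR1*, was the gene called against vector cells and was also among the 14 (edgeR adjusted p = 0.0416 and 0.00151 without these libraries). It stood at 1.20, 1.15 and 1.37 CPM with DMSO and 2.33, 2.34 and 1.77 CPM with H2O2 in TXNL1-DR-RD cells, a log2 fold change of 0.80, against -0.62 in vector and -0.86 in TXNL1-SxxS cells. The other antisense transcripts were *VIM-AS1*, *CBR1-AS1* and *SLC9A3R1-AS1*, 4 genes had an identifier only, and *CHD3*, a chromatin remodeller, *PLEC*, the cytoskeletal linker plectin, *FAXDC2*, *SHANK3*, *BAHCC1* and *ZFYVE28* were the protein-coding genes. *ZFYVE28*, an endosomal protein, rose in TXNL1-DR-RD cells (log2 fold change 0.49 ± 0.09 SE) and had 0.35 in TXNL1-WT, -0.18 in TXNL1-SxxS and -0.03 in vector cells. Without stated strand use, reads of the antisense transcripts and of their partners cannot be told apart.

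Arsenite, a thiol-reactive poison, gave the same cells a different profile. At 600 µM H2O2 and 100 µM arsenite, both for 6 h, 5141 genes (22.9%) were higher and 5420 (24.1%) lower with H2O2 than with arsenite, and without the outlying libraries 6517 (29%) and 6955 (30.9%). The responses to both agents share the 3 DMSO samples, so they are set side by side and tested directly against each other. The 5 genes with the smallest adjusted p were *BAG3*, *ATF3*, *DNAJB1*, *SESN2* and *CCNL1*, all lower with H2O2. *ATF3* had a log2 fold change of 0.40 with H2O2 and 4.46 with arsenite, a level of 466 CPM, and *SESN2* had 0.39 and 3.42. *DNAJB1* had -0.18 and 3.70, *BAG3* -0.06 and 4.004 and the cyclin L gene *CCNL1* -0.22 and 4.404. The metal-binding *MT2A* stood at 14.6, 15.6 and 15.6 CPM with H2O2 and at a mean of 202 CPM with arsenite. For the heat shock list, 17 of 24 members were lower with H2O2 than with arsenite and 1 was higher, and for the integrated stress list 22 of 32 were lower and 6 higher.

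Mitotic genes were also mostly lower with H2O2 than with arsenite. Of 70 genes of G2 and M phase, 38 were lower and 10 higher with H2O2 than with arsenite, against 24.1% and 22.9% of all genes. Their median log2 fold change against DMSO was -0.31 with H2O2 and -0.01 with arsenite. *PLK1* was at a mean of 152 CPM (SD 0.682, n = 3) with H2O2 and 257 CPM (SD 3.40, n = 3) with arsenite, a log2 fold change against DMSO of -0.82 and -0.07 (edgeR adjusted p = 1.53e-13 between the agents). *PIF1* had -1.23 and 1.97, and *HMMR* had -0.78 and 0.41. *CCNB1* was lower with arsenite, with -0.65 and -1.02. *E2F2* had 0.51 with H2O2 and -0.92 with arsenite, and *PHLDA3* 1.13 and -0.59, both past the test between agents. *CDKN1A* reached 13.5 CPM with H2O2 and 13.7 CPM with arsenite (log2 difference -0.02, edgeR adjusted p = 0.905), and *SLC7A11* 28.0 and 33.1 CPM (adjusted p = 0.426). *TXNL1* itself, again counted together with its construct, was at 105 CPM with arsenite, higher than with H2O2 (log2 difference -0.42, edgeR adjusted p = 3.57e-07).

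**Figure D5:**
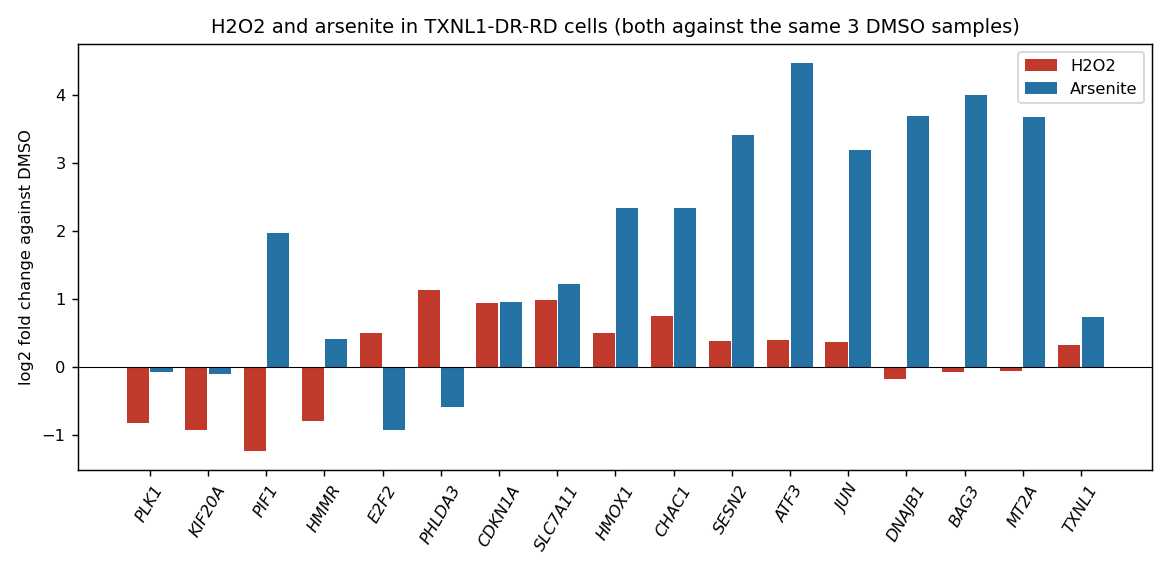
Log2 fold change against DMSO (y axis, bars from 0) of 17 genes with H2O2 or with Arsenite in TXNL1-DR-RD cells, both against the same 3 DMSO samples. The 4 mitotic genes reach -1.23 with H2O2 and lie between -0.10 and 1.97 with arsenite, while *SESN2*, *ATF3*, *JUN*, *DNAJB1*, *BAG3* and *MT2A* reach 3.19 to 4.46 with arsenite and stay between -0.18 and 0.40 with H2O2.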

How the data were processed

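mRNA of 36 HEK293T libraries (12 groups of 3) was sequenced by a service provider on a DNBseq platform. The authors aligned the reads to GRCh38 with QuasR and deposited raw counts per gene. DESeq2 is named in the submitters' processing notes. The annotation release, use of strand and counting of mates are not given in the sources used here. Of 61587 gene identifiers 61415 were found in GENCODE release 44. The 3 replicates per group were taken from the labels. Members and gene lists were chosen with earlier results of these data known.

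Genes with at least 10 counts in total over the 3 vector DMSO libraries (22486 of 42726 with a count) were tested with edgeR 4.0.16 in R 4.3.3 (TMM factors, robust quasi-likelihood fit, one mean per group over all 36 libraries), with Benjamini-Hochberg adjustment and a threshold of 0.05. DESeq2 1.42.0, other scalings, filters and sets of libraries, halved counts and leaving out each library were alternatives. The fit on the 6 libraries with a block, and the fit without genes that share exonic sequence, were added after seeing the data. The scripts were tested on simulated data. Same-numbered DMSO and H2O2 libraries of TXNL1-DR-RD cells deviated together (correlation across 11947 genes 0.53, 0.25 and 0.50), so that by the rule of a correlation over 0.1 in every pair the numbers pair these samples, which the labels do not state. Replicate 2 reached 0.32 with a library of another number, above its own pair. The other lines did not meet the rule, with same-number correlations of -0.07 to 0.05 in vector, -0.47 to 0.54 in TXNL1-WT and -0.10 to 0.14 in TXNL1-SxxS cells. Chi-square per degree of freedom between replicates was 5.25 to 35.2, so none was a repeat of another.

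Named genes were *TXNL1*, *PITHD1*, *PSMD1*, *PSMD4*, *PSMD14* and *ATF4*, list members, the 15 largest called rises and falls with a mean of at least 100 counts and no overlap, and the 5 called genes of smallest adjusted p in each further contrast. *BRD2*, *SH3GL2* and the genes called only without the outlying libraries were named after their values were seen. Promoter windows are from RefSeq (GRCh38.p14), and 12969 of 22447 tested symbols had one.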

Additional observations from a re-analysis of the deposited data

How the results depend on the processing

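Against 231 genes called between H2O2 and DMSO, DESeq2 called 457 (57.3% higher, against 48.9% in edgeR), no filter 102, the genes without exon overlap 114, the 34 libraries 2328, and the 6 libraries with a replicate block 2144. The replicate block over all 36 libraries gave 240. Leaving out 1 library gave 124 to 157. For the difference from TXNL1-SxxS cells, 0 in the main test, DESeq2 called 10 genes, no filter 1 (ENSG00000253806), halved counts 1 (ENSG00000253806), only the groups compared 3 (ENSG00000275807, *SLC9A3R1-AS1* and *WWTR1-AS1*), these groups with a replicate block 11, the 34 libraries 14, and leaving out 1 library 0 to 1 (ENSG00000253806, without H2O2 replicate 3). For TXNL1-WT cells DESeq2 called 2 (*ENTREP3* and ENSG00000288930), and for vector cells the 34 libraries gave 1 (*WWTR1-AS1*). Between H2O2 and arsenite, 4407 genes without exon overlap and 9360 to 9803 with 1 library left out passed, against 10561. Fewer genes were tested without exon overlap (9679); otherwise the cause was not tested. Of 78 named genes followed, 41 kept their side of the threshold in every setting and 0 reversed. Of these, 25 lost their call with no filter, 21 with only the groups compared, 10 with total counts and 15 to 23 with 1 library left out. Set against the main test, the 6 libraries with the replicate block gave *ATF4* a call and changed no other call of a named gene. Halving the counts left 223 genes called.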

Other observations

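Further called genes lay outside the lists and were chosen for mention after their values were seen. *CDKN3*, a phosphatase of cyclin-dependent kinases, fell from a mean of 32.9 to 23.8 CPM (log2 fold change -0.47), and *CCNF*, cyclin F, from 130 to 105 CPM (-0.31). *SPAG5*, a spindle protein, fell by 0.42 and *PRR11* by 0.36 on the log2 scale. The splicing factors *SRSF5* (100.9 to 74.1 CPM, log2 fold change -0.44) and *SRSF6* (316 to 266 CPM, -0.25) and the RNA helicase *DDX5* (553 to 457 CPM, -0.27) fell, while the RNA-binding proteins *RSRC2* (0.29) and *CELF1* (0.23) rose on the log2 scale. *SUN2*, of the inner nuclear membrane, went from 47.5 to 31.1 CPM (-0.61).

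Some tRNA synthetase genes moved in opposite directions. *GARS1* (328 to 373 CPM, log2 fold change 0.19) and *AARS1* (115 to 140 CPM, 0.28) rose, while the valyl-tRNA synthetases *VARS1* (125 to 101.2 CPM, -0.31) and *VARS2* (-0.30) fell. Rises also included *CCND2*, cyclin D2, from 78.0 to 102 CPM (0.39), *MAP1B*, a microtubule-associated protein, from 55.1 to 84.1 CPM (0.61), *SDC1*, syndecan 1, from 6.39 to 9.72 CPM (0.61), *TSC22D3*, the glucocorticoid-induced leucine zipper protein, from 36.7 to 50.7 CPM (0.47), and *JDP2*, an AP-1 repressor (0.68).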
